A study of Mus musculus with 18 samples.

Results

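The genes described here encode proteins of oxidative phosphorylation, the final stage of respiration in mitochondria. They were chosen by name: a probe set had to carry exactly 1 gene symbol on the array's annotation, and that symbol had to begin with Nduf, Uqcr, Atp5 or Cox followed by a digit from 4 to 8, or be Sdha, Sdhb, Sdhc or Sdhd. Where a gene had several such probe sets, the brightest on average over all arrays stood for it. The rule found 89 genes among the 22180 genes with 1 symbol, and 86 of the 89 passed the filter on low values, as did 19016 of all genes. The 3 that did not pass were Cox7b2, with a mean log2 signal of 2.40, and the pseudogenes Atp5c1-ps and Uqcrh-ps1, with means of 2.92 and 3.28. The rule reads names only, so besides structural subunits it took in 8 complex I assembly factors, which are named Ndufaf. A further 10 probe sets named a member together with other genes and were left out by the rule, and genes encoded on mitochondrial DNA were not analysed here.

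The samples were mouse neurospheres, floating cultures of neural stem and progenitor cells, taken at day 0, and the cells they gave after 4 days of differentiation. At both days there were wild type cultures, cultures in which Pcdh19 was knocked out, and mosaic cultures that mixed cells of both genotypes. Pcdh19 encodes a protocadherin, a cell adhesion protein. All 6 groups held 3 samples labelled female, each on 1 array, and nothing else distinguished them in the labels, which give neither strain nor age, nor the allele used for the knockout, nor the proportions of the mosaic mix. The replicates are described as technical, so p-values measured only the spread between these samples, which may be smaller than that between cultures or animals.

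Oxidative phosphorylation runs through a chain of protein complexes in the inner mitochondrial membrane. Complex I (NADH dehydrogenase), complex II (succinate dehydrogenase), complex III (the cytochrome bc1 complex) and complex IV (cytochrome c oxidase) pass electrons to oxygen, and all of them except complex II pump protons, whose return flow drives complex V, the ATP synthase. Neural stem cells are known to rely heavily on glycolysis, and their differentiation is commonly accompanied by a shift towards respiration. Several complex IV subunits exist as isoforms from separate genes, one found in most tissues and another mainly in muscle, lung or testis.

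The members comprised 6 core subunits of complex I, 26 accessory subunits and 8 assembly factors of that complex, 4 subunits of complex II, 7 of complex III, 19 of complex IV, 17 of complex V and 2 pseudogenes. Ndufa4 and its paralog Ndufa4l2 were counted with complex IV, where the Ndufa4 protein is found. Values are deposited normalized signals on a log2 scale, on which a difference of 1 corresponds to a 2-fold change. Signals of different probe sets were not compared with each other, since each probe set has its own response.

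Promoter sequence is described first, since transcription factors shared by many respiratory genes are textbook knowledge. The matches were counted after the calls described below had been made. Of the 89 members, 72 had a RefSeq window on mouse assembly GRCm38.p6, running from 250 bases before the annotated start to 50 bases after it. Both strands were searched for 7 short motifs chosen from textbook knowledge when the members' values were already known. The motif of nuclear respiratory factor 1, searched as GCATGCGC, occurred in 12 of the 72 members (16.7%), in 4.59% of the 14663 tested genes with a window and in 2.71% of all 32851 windows. Among the 8 members that were called higher at day 4 in every genotype, described below, 6 held it, and so did 1 of the 4 called lower in every genotype that had a window. When the genotypes were averaged, it occurred in 8 of 24 members called higher, 1 of 9 called lower and 3 of 38 not called. These counts describe letters in a window and were not tested, and a match is not evidence of binding.

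The 7 stretches with the motif are printed here because they are from the members on which the differentiation results turn. The match is in capitals, and where 10 letters are capital, matches on both strands overlap. Ndufa11 is shown from chr17:56717662-56717751 on the plus strand, Ndufaf4 from chr4:24897930-24898019 on the plus strand, Ndufa8 from chr2:36049339-36049386 on the minus strand, Uqcr11 from chr10:80406818-80406865 on the minus strand, Cox6a1 from chr5:115349071-115349160 on the minus strand, Atp5k from chr5:108434400-108434489 on the minus strand, and Atp5g2 from chr15:102671048-102671129 on the minus strand. The first 6 were higher at day 4 and Atp5g2 was lower.
Ndufa11: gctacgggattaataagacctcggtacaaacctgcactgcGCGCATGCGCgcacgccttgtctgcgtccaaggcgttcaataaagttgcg
Ndufaf4: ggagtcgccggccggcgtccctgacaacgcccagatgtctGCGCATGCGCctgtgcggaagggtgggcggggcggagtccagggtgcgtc
Ndufa8: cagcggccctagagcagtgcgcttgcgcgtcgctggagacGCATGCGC
Uqcr11: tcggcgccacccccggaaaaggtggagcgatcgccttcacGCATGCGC
Cox6a1: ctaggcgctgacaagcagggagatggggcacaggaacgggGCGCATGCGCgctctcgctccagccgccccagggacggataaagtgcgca
Atp5k: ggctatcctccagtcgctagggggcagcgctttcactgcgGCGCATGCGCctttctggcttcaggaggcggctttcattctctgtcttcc
Atp5g2: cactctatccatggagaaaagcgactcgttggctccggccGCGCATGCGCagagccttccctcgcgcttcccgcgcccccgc

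In these windows the other motifs fell as follows. The ETS core CCGGAAG, read by the GA-binding protein among others, occurred in 19 of the 72 members (26.4%) and in 14.3% of tested genes with a window. The YY1 motif AAGATGGC occurred in 10 members (13.9%) and 4.0% of tested genes, and in none of the 8 members called higher in every genotype. The cyclic AMP response element TGACGTCA was found in 3 members (4.17%, against 2.93% of tested genes), and the motif of oestrogen-related receptors, TCAAGGTCA, in 2 (2.78%, against 0.334%). The GC box GGGCGGG and the CCAAT box lay close to the share in tested genes, at 37.5% against 42.1% and at 41.7% against 41.5%.

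The arrays were alike in overall signal. Array medians ran from 4.85 to 4.99, and arrays correlated across probe sets with a Pearson's r of 0.981 to 0.986 within groups and of 0.955 to 0.972 between days. The median signal of the members was 7.97 to 8.10 on day 0 arrays and 8.15 to 8.33 on day 4 arrays. The median residual SD between replicates was 0.110 for members and 0.158 over all genes tested, a comparison that was not matched for signal level. Pcdh19 itself was 6.78 ± 0.106 (SD, n = 3) in wild type at day 0, 5.51 ± 0.150 in knockout and 6.0 ± 0.334 in mosaic, and at day 4 it was 6.90 ± 0.0873, 5.70 ± 0.167 and 6.38 ± 0.793. The mosaic arrays at day 4 read 6.54, 7.09 and 5.52 for Pcdh19, so the third lay next to the knockout arrays (5.53 to 5.86) and the second above the wild type arrays (6.81 to 6.98). Without replicate 3 of that group 11 members were called higher and 5 lower over mosaic differentiation, and without replicate 2 there were 12 and 5, beside 13 and 6 with all arrays.

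Cell markers moved strongly between the days in all genotypes. All 9 oligodendrocyte markers tested were called higher at day 4 in each genotype, with a median log2 change of 3.23 in wild type, 3.25 after knockout and 3.55 in the mosaic cultures, and 6 of 8 astrocyte markers and 5 of 8 neuron markers also rose in each. All 9 cell cycle markers fell, with medians of -2.48, -2.77 and -2.26. The mean log2 signal of the oligodendrocyte list was 5.61 to 6.11 on day 0 arrays and 8.86 to 9.52 on day 4 arrays, and that of the cell cycle list went from 8.54 to 8.86 down to 5.78 to 7.11. The neural stem cell list went from 9.91 to 10 down to 9.40 to 9.56, with 5 of 10 markers called lower in each genotype. Means of the microglia list (4.22 to 4.54 over both days) and the endothelial list (4.54 to 4.92) lay near or below the array medians. The mural and fibroblast list read 4.70 to 4.88 at day 0 and 4.85 to 5.21 at day 4, and the ependymal list 4.95 to 5.29 and 5.06 to 5.45. In bulk RNA a change in the share of a cell type and a change in RNA per cell cannot be told apart, and the part of cell composition in the results below was not tested.

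The first comparison asked how the respiratory genes changed during differentiation in each genotype. A minority was called, in both directions, and of the called changes all except those of Cox6a2 were under 2-fold. Ndufa11, an accessory subunit in the membrane arm of complex I, rose most as read by its brightest probe set, by 0.90 ± 0.147 (log2, SE) in wild type, 0.95 in the knockout and 0.86 in the mosaic cultures. With its 2 probe sets averaged, Ndufa11 rose by 0.616 in the knockout and 0.604 in the mosaic cultures, less than Ndufaf2 in the former (0.64) and than Uqcr11 and Ndufaf4 in the latter (0.63 and 0.62). Cox6a2, the muscle isoform of a complex IV subunit, fell most, by 1.55 ± 0.164, 1.24 and 1.44 on the log2 scale. Outside these 2 genes and Cox6b2, the testis isoform of another complex IV subunit, the largest called change in a genotype was the rise of 0.64 of Ndufaf2 in knockout.

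A gene was called when limma's moderated test gave an adjusted p under 0.05 (Benjamini-Hochberg over the 19016 genes). In wild type 10 members were called higher at day 4, against 17.2% of all genes, and 7 lower, against 16.3%. In knockout 15 were higher (all genes 15%) and 5 lower (12.4%). In mosaic 13 were higher (14.4%) and 6 lower (11.9%). In both directions together this was 19.8% of members in wild type against 33.6% of all genes. It was 23.3% against 27.4% in knockout and 22.1% against 26.2% in mosaic. The members' shares lay below those of all genes, a difference that was not tested and whose size moved with the settings. In wild type the shares were 30.2% and 35% after quantile normalization, and 22.6% and 44.3% with the filter at the 50th percentile. Without a filter they were 21.3% and 22.4% in knockout and 19.1% and 21.4% in mosaic.

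Median changes of the members were small as well. The median log2 change was 0.03 in wild type (all genes 0.09), 0.08 in knockout (0.02) and 0.10 in mosaic (0.02). In size, disregarding direction, the median was 0.159, 0.153 and 0.148 for members and 0.239, 0.185 and 0.182 for all genes. The wild type split of calls depended on scaling: after quantile normalization 22 members were higher and 4 lower, so that 84.6% of calls were higher in place of 58.8%, and with arrays set to a common median the wild type median of members became -0.00145.

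**Figure D1:**
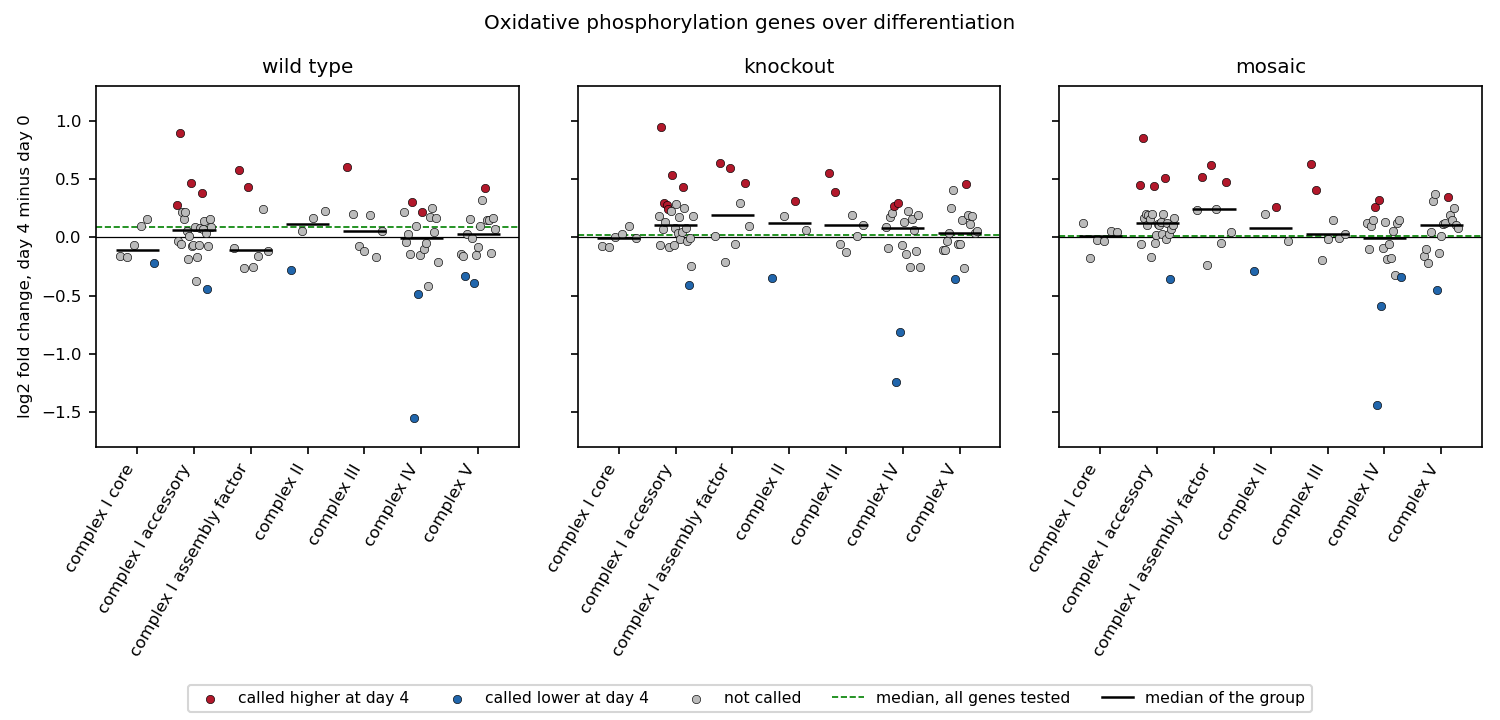
Log2 change from day 0 to day 4 (y axis) of each of the 86 tested members, 1 point per gene, by complex or role (x axis) in wild type, knockout and mosaic. Red points were called higher and blue points lower (limma, adjusted p under 0.05), black bars are group medians and the green dashed line is the median of all genes tested; most points lie within 0.5 of 0, with Ndufa11 near 0.9 and Cox6a2 lowest at -1.55, -1.24 and -1.44.

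Replicates of the 2 days did not overlap for 22 higher and 13 lower members in wild type (40.7% of members, 48.9% of all genes), for 27 and 8 in knockout (40.7% and 39.2%) and for 24 and 10 in mosaic (39.5% and 38.1%). When the 3 genotypes were averaged in the same fit, which sets 9 day 4 arrays against 9 day 0 arrays and was added after seeing the data, 28 members were called higher (all genes 24.9%) and 12 lower (20.7%). That was 46.5% of members and 45.6% of all genes. With the filter at the 50th percentile it was 51.2% and 59%.

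**Figure D2:**
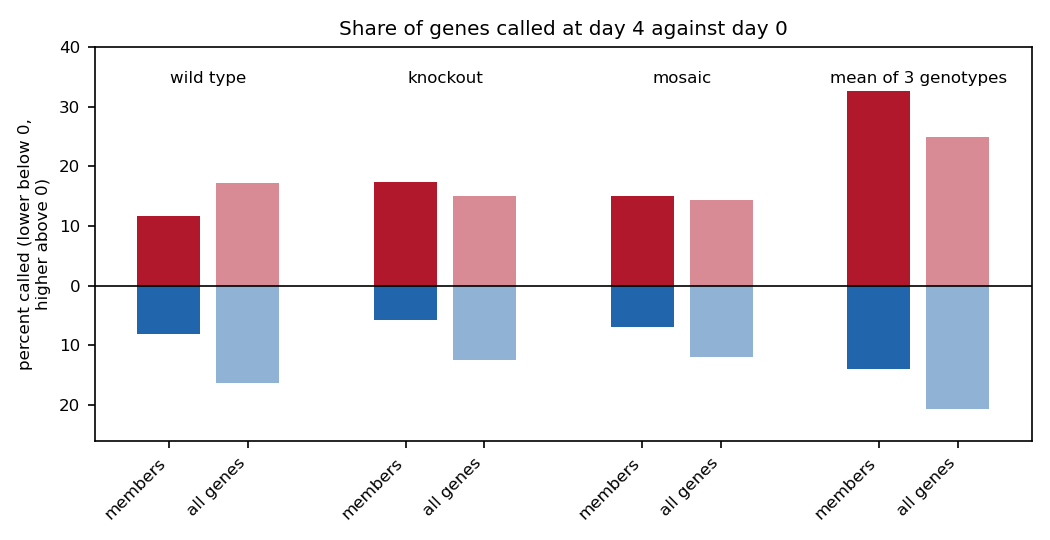
Percent of the 86 members and of the 19016 genes tested that were called higher (red, above 0) or lower (blue, below 0) at day 4 against day 0, in each genotype and for the mean of the 3 genotypes. For higher calls the members' share lay close to that of all genes in knockout and mosaic, above it in the mean and below it in wild type. For lower calls it lay below in every comparison, and no difference was tested.

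The 3 genotype comparisons share no arrays, but a single fit gave each gene the same residual spread in all 3. Their calls are set side by side here and were not independent. Of the members, 13 were called in the same direction in all 3 genotypes (15.1%, against 17.8% of all genes), 5 in exactly 2, 7 in exactly 1 and 61 in none, and no member was called in opposite directions. Of all 19016 genes tested, 1494 were called in exactly 2, 3446 in exactly 1 and 10692 in none, and 20 in opposite directions. The 13 calls shared by wild type and knockout were 76.5% of the wild type list and 65% of the knockout list. The 14 shared by wild type and mosaic were 82.4% and 73.7% of their lists, and the 17 shared by knockout and mosaic were 85% and 89.5%. These shares were not computed for all genes, so they cannot be read as particular to the members. The sign of the change was the same in all 3 genotypes for 68.6% of members and 60.4% of all genes.

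**Figure D3:**
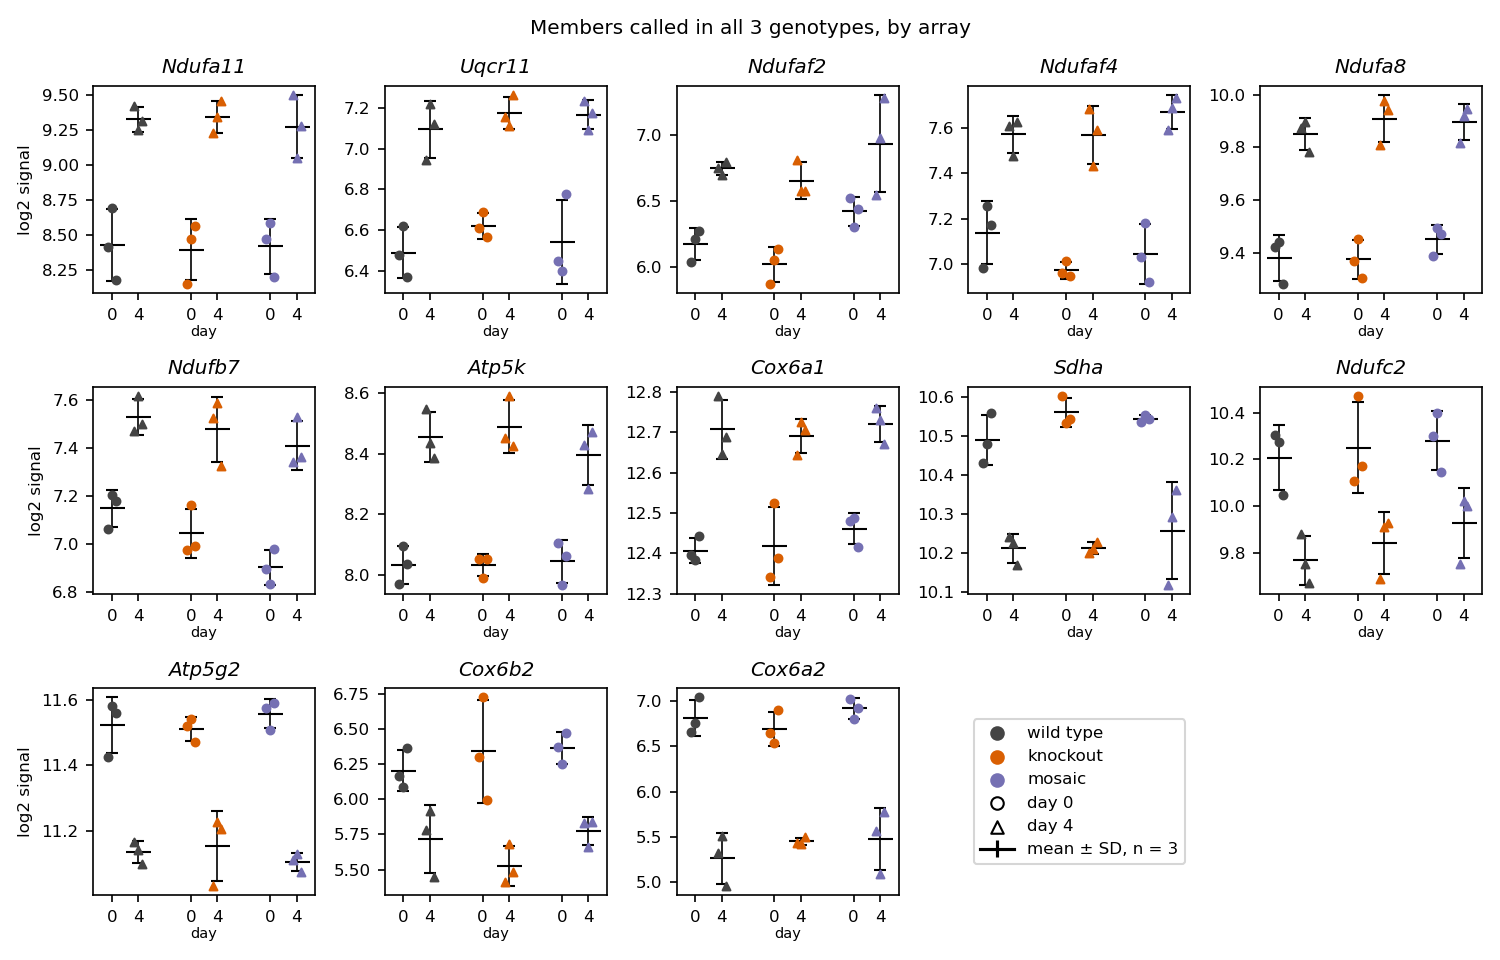
Log2 signal (y axis) on each of the 18 arrays for the 13 members called in all 3 genotypes, by day (circles day 0, triangles day 4) and genotype (colour), with mean ± SD (n = 3); the y axis has its own range in each panel and does not start at 0. In every panel and genotype the 3 arrays of one day lie apart from the 3 of the other; the gap is narrowest for Ndufaf2 in mosaic cultures, between 6.52 at day 0 and 6.55 at day 4.

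Complex I is the entry point for electrons from NADH and the largest of the complexes. The 6 members among its core subunits, all of the peripheral arm that carries the redox centres, gave a single call over the 3 genotypes, Ndufv2, an iron-sulfur subunit, lower in wild type. Ndufv2 read 9.51, 9.53 and 9.54 on the wild type arrays at day 0 and 9.32, 9.35 and 9.25 at day 4, so the days did not overlap. The change of -0.22 ± 0.0827 had an adjusted p of 0.0487 in limma. In knockout and mosaic the Ndufv2 changes were -0.01 and 0.04 and were not called.

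The 26 accessory subunits surround the core and serve its assembly and stability. Of these, 4 were called higher and 1 lower in wild type, 6 and 1 in knockout, and 4 and 1 in mosaic. The shares of all genes called in either direction were 33.6%, 27.4% and 26.2%. Ndufa11 read 8.41, 8.69 and 8.18 at day 0 in wild type and 9.42, 9.25 and 9.31 at day 4. In knockout it read 8.15, 8.47 and 8.56 and then 9.23, 9.35 and 9.46. In mosaic it read 8.47, 8.58 and 8.20 and then 9.50, 9.05 and 9.28. All 9 day 4 arrays lay above all 9 day 0 arrays, with fold changes of 1.87, 1.93 and 1.81 and limma adjusted p-values of 1.88e-04, 1.17e-04 and 3.03e-04. A second, dimmer probe set of Ndufa11 rose by 0.92 in wild type, but by 0.28 in knockout and 0.35 in mosaic.

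Ndufa8, an accessory subunit on the intermembrane space side, was 9.38 ± 0.0873 (SD, n = 3) at day 0 and 9.85 ± 0.0591 at day 4 in wild type. It was 9.37 ± 0.0749 and 9.91 ± 0.0888 in knockout, and 9.45 ± 0.0557 and 9.90 ± 0.0687 in mosaic. No day 0 array reached any day 4 array. The changes of 0.47, 0.53 and 0.45 had limma adjusted p-values of 2.47e-04, 7.55e-05 and 4.07e-04, and its second probe set changed by 0.41, 0.54 and 0.44. Ndufb7, another accessory subunit facing the intermembrane space, rose by 0.38, 0.43 and 0.51. Ndufb7 read from 6.83 to 7.20 over the 9 day 0 arrays and from 7.33 to 7.61 over the 9 day 4 arrays.

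Ndufc2, an accessory subunit of the membrane arm, moved the other way. In wild type it read 10.30, 10.27 and 10.05 at day 0 and 9.88, 9.75 and 9.67 at day 4, a change of -0.44 ± 0.118 (limma adjusted p = 0.00842). In knockout and mosaic the changes were -0.41 and -0.36 (adjusted p = 0.0153 and 0.0335). These 2 calls were lost without knockout day 0 replicate 2 (adjusted p = 0.0915) or day 4 replicate 1 (0.0719), and without mosaic day 0 replicate 1 (0.0833), day 0 replicate 2 (0.13) or day 4 replicate 1 (0.144). Ndufa1, an X-linked accessory subunit, was called higher in wild type (0.28) and mosaic (0.45), and its change of 0.18 in knockout was not called. Ndufa13, Ndufa3 and Ndufa5, named after their values were seen, were called higher in knockout alone, by 0.30, 0.28 and 0.24, and the differences between genotypes in their change did not pass the test.

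The 8 assembly factors of complex I are not part of the finished complex. Of these, 2 were called higher in wild type and 3 in each of the other genotypes. None was called lower in limma, with 1, 0 and 1 lower at an unadjusted p under 0.05. The shares of all genes called in either direction were 33.6%, 27.4% and 26.2%, and the difference was not tested. Ndufaf4 read 6.99, 7.26 and 7.17 at day 0 in wild type and 7.61, 7.48 and 7.63 at day 4. In knockout it read 6.96, 7.02 and 6.95 and then 7.68, 7.43 and 7.59, and in mosaic 7.03, 7.18 and 6.92 and then 7.59, 7.69 and 7.73. Every day 4 array lay above every day 0 array, and the changes were 0.43, 0.59 and 0.62 (limma adjusted p = 0.00215, 1.54e-04 and 9.12e-05).

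Ndufaf2, a chaperone-like assembly factor, was 6.17 ± 0.122 (SD, n = 3) and then 6.75 ± 0.0476 in wild type, a change of 0.58. In knockout it was 6.02 ± 0.134 and 6.66 ± 0.138, a change of 0.64. The mosaic arrays read 6.52, 6.30 and 6.44 at day 0 and 6.55, 6.98 and 7.28 at day 4, so the first day 4 array hardly exceeded the highest day 0 array, and the change was 0.52 (limma adjusted p = 0.0118). That mosaic call was lost without mosaic day 0 replicate 2 (adjusted p = 0.0537) and without mosaic day 4 replicate 3 (0.0702, with a change of 0.343). Ndufaf7, which methylates a complex I subunit, was called higher in knockout (0.47) and mosaic (0.47), and its wild type change was 0.24 (adjusted p = 0.0829).

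Complex II feeds electrons from succinate and is also an enzyme of the citric acid cycle. Its 4 subunits divided. Sdha, the flavoprotein with the succinate site, read 10.43, 10.48 and 10.56 in wild type at day 0 and 10.24, 10.23 and 10.17 at day 4. In knockout Sdha was 10.56 ± 0.0365 (SD, n = 3) and then 10.21 ± 0.0145, and in mosaic 10.54 ± 0.00899 and then 10.26 ± 0.125. The days did not overlap in any genotype, and Sdha fell by 0.28, 0.35 and 0.29 on the log2 scale (limma adjusted p = 0.00817, 0.00186 and 0.00769). The wild type call was lost after quantile normalization, with a change of -0.176 and an adjusted p of 0.0608.

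Sdhc, a membrane anchor of complex II, was called higher in knockout (0.31, adjusted p = 0.0191) and mosaic (0.26, adjusted p = 0.0499) with limma. In wild type its 3 day 4 arrays also lay above its day 0 arrays, but the change of 0.17 was not called (adjusted p = 0.182). Sdhb, the iron-sulfur subunit, changed by 0.06, 0.19 and 0.20, and Sdhd, the other anchor, by 0.23, 0.06 and -0.03, and neither was called in a genotype.

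Complex III passes electrons from ubiquinol to cytochrome c. Of its 7 members 1 was called higher in wild type and 2 in each of the other genotypes. None was lower by limma in any genotype, also at an unadjusted p under 0.05 (0 in each). All genes were called in either direction at shares of 33.6%, 27.4% and 26.2%. Uqcr11, a small accessory subunit, read 6.48, 6.62 and 6.37 at day 0 in wild type and 6.94, 7.22 and 7.12 at day 4. In knockout it went from 6.62 ± 0.0638 (SD, n = 3) to 7.18 ± 0.0778, and in mosaic from 6.54 ± 0.206 to 7.17 ± 0.0715. All 9 day 4 arrays lay above all 9 day 0 arrays, and the fold changes were 1.52, 1.47 and 1.55 (limma adjusted p = 3.45e-04, 7.58e-04 and 2.56e-04). Uqcrb, a subunit near the ubiquinone site, was called higher in knockout (0.39) and mosaic (0.41), and its wild type change was 0.20 (adjusted p = 0.122).

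Complex IV reduces oxygen. Of its 18 tested members 2 were called higher and 2 lower in wild type, 2 and 2 in knockout, and 2 and 3 in mosaic. The shares of all genes called in either direction were 33.6%, 27.4% and 26.2%. Several of the calls in complex IV were of paired isoforms. Cox6a2, the heart and skeletal muscle isoform of subunit 6a, read 6.65, 6.75 and 7.04 in wild type at day 0 and 5.33, 5.51 and 4.96 at day 4. In knockout it read 6.64, 6.54 and 6.89 and then 5.44, 5.42 and 5.50. In mosaic it read 7.02, 6.80 and 6.92 and then 5.57, 5.10 and 5.77. Every day 4 array lay below every day 0 array, and day 4 signal was 0.342, 0.424 and 0.370 of that at day 0 (limma adjusted p = 2.37e-06, 2.39e-05 and 4.90e-06).

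Its counterpart of most tissues, Cox6a1, rose. It was 12.41 ± 0.0309 (SD, n = 3) and then 12.71 ± 0.0730 in wild type, 12.42 ± 0.0957 and 12.69 ± 0.0424 in knockout, and 12.46 ± 0.0383 and 12.72 ± 0.0452 in mosaic. The days did not overlap in any genotype, and the changes of 0.30, 0.27 and 0.26 had limma adjusted p-values of 0.00463, 0.00954 and 0.0139. The knockout call was lost without knockout day 0 replicate 1 (adjusted p = 0.0502) and the mosaic call without mosaic day 0 replicate 3 (0.053). Both were also lost when the groups were fitted alone (0.0685 and 0.0777).

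Subunit 6b showed the same opposition. Cox6b2, the testis isoform, read 6.16, 6.08 and 6.36 in wild type at day 0 and 5.78, 5.92 and 5.45 at day 4, a change of -0.49 ± 0.156 (limma adjusted p = 0.0235). In knockout it read 6.30, 6.72 and 6.0 and then 5.41, 5.68 and 5.48, a change of -0.82, and in mosaic 6.37, 6.25 and 6.47 and then 5.83, 5.66 and 5.84, a change of -0.59. No day 4 array reached a day 0 array of its own genotype. The wild type call was lost without wild type day 0 replicate 3 (adjusted p = 0.0948) or day 4 replicate 3 (0.113). Cox6b1, the isoform of most tissues, was called higher in knockout (0.29) and mosaic (0.32), and its wild type change was 0.10 (adjusted p = 0.369).

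The other isoform pairs gave few calls. Cox7a2, the form of most tissues, was called higher in wild type (0.22, limma adjusted p = 0.0341), while Cox7a1, its muscle form, changed by -0.15, -0.06 and -0.09 and Cox7a2l, which takes part in supercomplexes, by -0.10, -0.14 and -0.18 without a call. Cox4i1 changed by 0.22, 0.09 and 0.13 and its lung form Cox4i2 by -0.04, -0.09 and -0.10, with no call in a genotype. Cox8a changed by 0.18, 0.16 and 0.05, Cox8b by 0.26, 0.06 and -0.32, and Cox8c by 0.05, -0.11 and 0.12, again without calls. The means of Cox8b and Cox8c over all arrays, 4.07 and 3.73, lay below the array medians of 4.85 to 4.99. Ndufa4l2, a hypoxia-responsive paralog of Ndufa4, was called lower in mosaic (-0.34, limma adjusted p = 0.0477). It changed by -0.21 in wild type and -0.26 in knockout without a call. Its mosaic arrays read 4.81, 5.02 and 4.98 at day 0 and 4.76, 4.56 and 4.47 at day 4, also near or below the array medians. Ndufa4 itself changed by 0.16, 0.19 and 0.15.

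Complex V makes ATP from the proton flow. Of its 17 members 1 was called higher and 2 lower in wild type, and 1 and 1 in each of knockout and mosaic. Calls in either direction took in 33.6%, 27.4% and 26.2% of all genes. Atp5k, subunit e, which helps ATP synthase form dimers, read 7.97, 8.09 and 8.04 in wild type at day 0 and 8.55, 8.43 and 8.38 at day 4. In knockout it went from 8.03 ± 0.0358 (SD, n = 3) to 8.49 ± 0.0874, and in mosaic from 8.04 ± 0.0706 to 8.39 ± 0.0989. All 9 day 4 arrays lay above all 9 day 0 arrays, and the changes were 0.42, 0.46 and 0.35 (limma adjusted p = 7.19e-04, 3.72e-04 and 0.00342).

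Atp5g2, one of several genes for the same subunit c of the rotor ring, fell. It was 11.52 ± 0.0846 (SD, n = 3) and then 11.13 ± 0.0349 in wild type, 11.51 ± 0.0357 and 11.15 ± 0.107 in knockout, and 11.56 ± 0.0447 and 11.10 ± 0.0269 in mosaic. No day 4 array reached a day 0 array. The changes of -0.39, -0.36 and -0.45 had limma adjusted p-values of 7.86e-04, 0.00164 and 2.02e-04, and a second probe set gave -0.33, -0.35 and -0.45. Atp5c1, the gamma subunit of the central stalk, was called lower in wild type (-0.33, adjusted p = 0.012), and changed by -0.03 in knockout and -0.22 in mosaic without a call.

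Probe sets bear on some of these values. Of the 9 members with several probe sets, 4 had probe sets of opposite sign in at least 1 genotype, namely Cox5b, Cox7b, Ndufa12 and Atp5h, and none of these was called in a genotype. Many respiratory genes have processed copies elsewhere in the genome, and whether probe sets read such a copy in place of or beside the parent gene was not tested. This holds for the brightest probe sets of Ndufa11, Cox5b and Atp5h too, whose dimmer probe sets gave other changes.

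Other genes of energy metabolism were described from lists compiled by hand. Over all genes tested, 17.2% were called higher and 16.3% lower in wild type, 15% and 12.4% in knockout, and 14.4% and 11.9% in mosaic. The counts of each list are to be read beside these shares, and no list was tested against them. Of 35 assembly factors outside the naming rule, 6 were called higher and 2 lower in wild type, 9 and 2 in knockout, and 11 and 0 in mosaic (limma, with 0 lower there also at an unadjusted p under 0.05). Uqcc2, an assembly factor of complex III, rose by 0.55, 0.52 and 0.47, and Coa6, a copper chaperone of complex IV, by 0.46, 0.39 and 0.33. Sdhaf2, which attaches the flavin to Sdha, rose by 0.39, 0.32 and 0.32, while Sdha itself fell. Cox20, an assembly factor of complex IV, was called lower in wild type (-0.55) and knockout (-0.30).

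The citric acid cycle list of 16 genes gave 1 call higher and 4 lower in wild type, 2 and 4 in knockout, and 2 and 3 in mosaic. Pdha1, a subunit of pyruvate dehydrogenase, fell by 0.74, 0.71 and 0.47 on the log2 scale, and Cs, citrate synthase, by 0.54, 0.57 and 0.47. Idh3g, a subunit of NAD-dependent isocitrate dehydrogenase, fell by 0.43, 0.50 and 0.49, and Suclg2, a succinyl-CoA ligase subunit, rose by 0.46, 0.50 and 0.47. Among 16 genes of mitochondrial biogenesis 3 were higher and 4 lower in wild type, 4 and 3 in knockout, and 2 and 1 in mosaic. For both lists the share of all genes called in either direction was 33.6%, 27.4% and 26.2%. Nrf1, which encodes nuclear respiratory factor 1, was called lower in wild type (-0.38) and knockout (-0.29), and its mosaic change of -0.20 was not called. Pprc1, a PGC-1 related coactivator, rose by 0.42, 0.42 and 0.40, Myc rose by 0.52, 0.72 and 0.36, and Tfb1m, a mitochondrial rRNA methyltransferase, fell by 0.48, 0.39 and 0.41.

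The glycolysis list of 19 genes includes glucose and lactate transporters. It gave 5 calls higher and 9 lower in wild type, 5 and 8 in knockout, and 2 and 9 in mosaic. Of all genes tested, 33.6%, 27.4% and 26.2% were called in either direction. The median changes of the glycolysis list were -0.17, -0.20 and -0.36, beside 0.03, 0.08 and 0.10 for the respiratory members. Ldha, lactate dehydrogenase A, fell by 1.44, 1.22 and 1.3 on the log2 scale, Tpi1, triosephosphate isomerase, by 1.37, 1.31 and 1.28, and Slc2a3, a neuronal glucose transporter, by 1.37, 1.11 and 1.46. Pfkm, the muscle form of phosphofructokinase, rose by 0.54, 0.53 and 0.55.

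**Figure D4:**
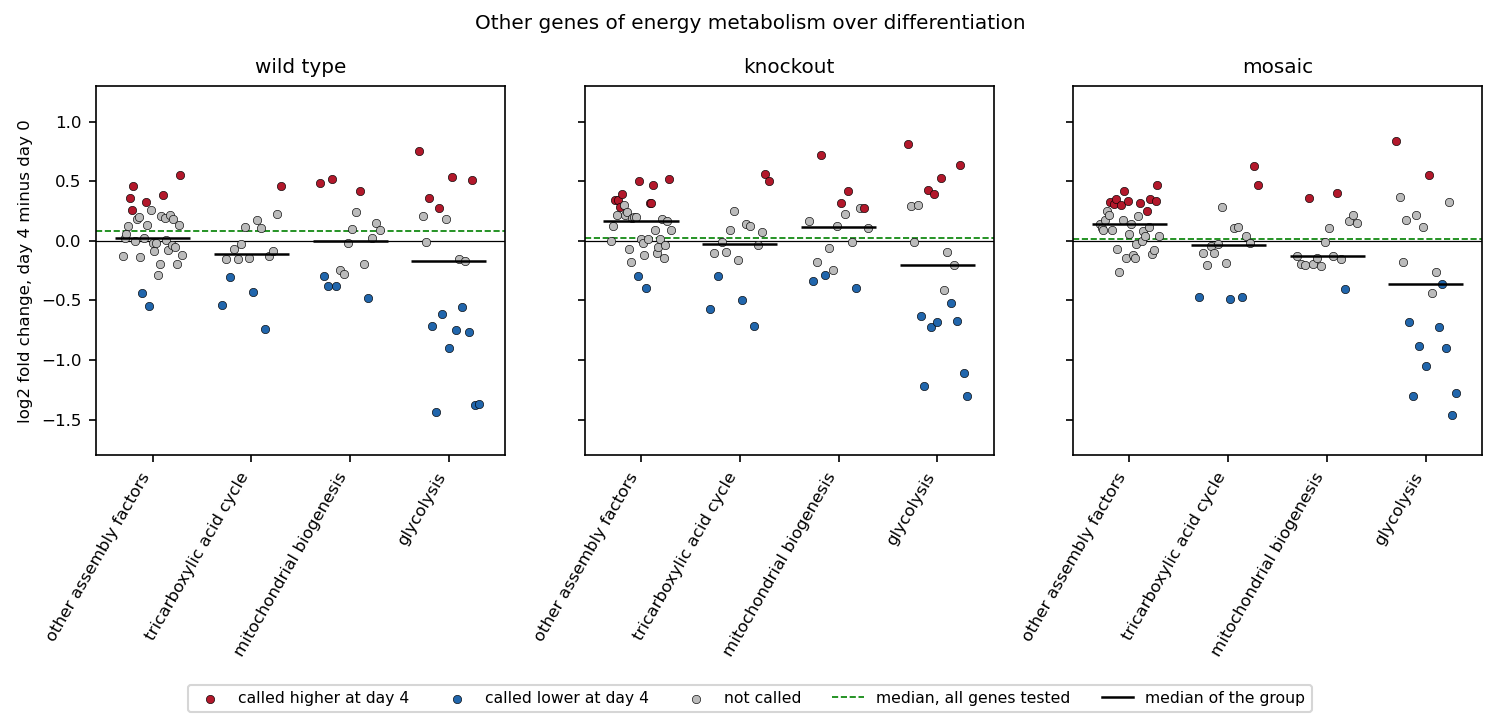
Log2 change from day 0 to day 4 (y axis) of genes in 4 other lists of energy metabolism (x axis) in wild type, knockout and mosaic, 1 point per gene. Red and blue points were called higher and lower (limma, adjusted p under 0.05), black bars are list medians and the green dashed line is the median of all genes tested; glycolysis medians lie lowest, at -0.17, -0.20 and -0.36.

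The second comparison asked whether Pcdh19 genotype altered the respiratory genes at either day. With limma no member was called in any of the 6 comparisons, and no gene at all was called in any of them (0% of the 19016). Pcdh19 itself was lower in knockout by 1.27 ± 0.264 at day 0 (log2, SE) and by 1.2 at day 4, and did not pass either (adjusted p = 0.855 and 0.195). For a typical member the unadjusted 95% interval of a difference reached 0.207 to either side, so smaller differences were not detectable at this precision. Larger differences could also go uncalled, as that of Pcdh19 did, since a call had to pass adjustment over all genes.

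At an unadjusted p under 0.05 at day 0, 0 members were higher and 2 lower in knockout than wild type (3.61% of all genes in either direction), 1 higher and 1 lower in mosaic than wild type (4.3%), and 3 higher and 1 lower in mosaic than knockout (4.24%). At day 4 there were 6 higher and 0 lower in knockout than wild type (12.7% of all genes), 10 and 0 in mosaic than wild type (15.9%), and 1 and 0 in mosaic than knockout (6.07%). These day 4 counts moved with the scaling: quantile normalization gave 1 higher and 0 lower in knockout and 5 and 2 in mosaic against wild type, and a common array median gave 11 and 0 and then 19 and 0. Both of these comparisons share the wild type arrays. As deposited, the members' shares of 6 and 10 in 86 lay below those of all genes.

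**Figure D5:**
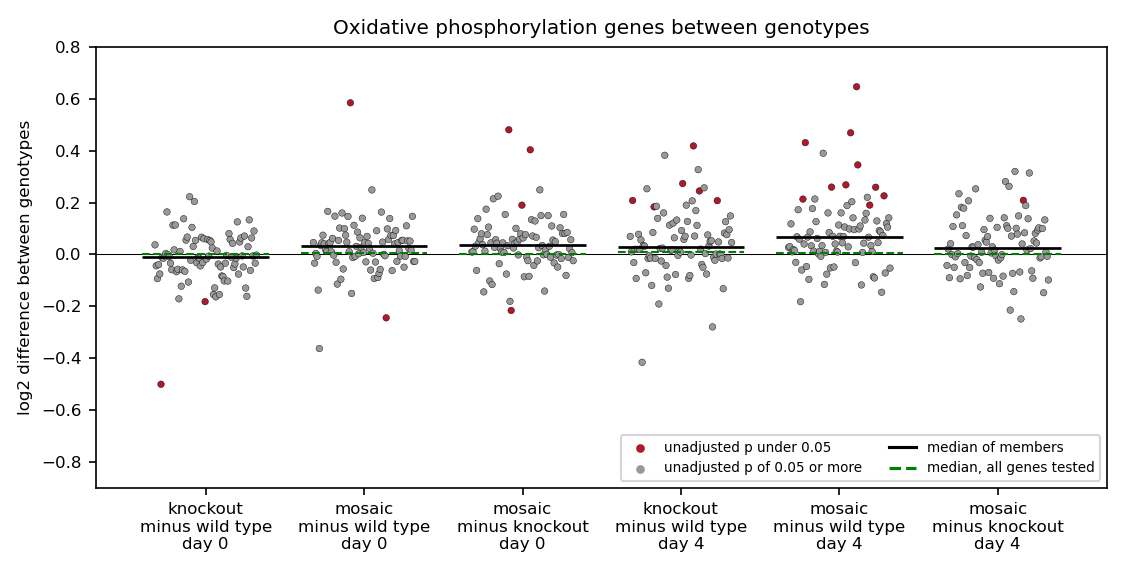
Log2 difference between genotypes (y axis) of each tested member, 1 point per gene, for the 6 genotype comparisons (x axis). Red points had an unadjusted p under 0.05 (limma), none passed adjustment, black bars are medians of members and green dashed bars medians of all genes; the member median is highest for mosaic against wild type at day 4, at 0.0673.

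At day 4 the members as deposited lay slightly above wild type in both other genotypes. In mosaic 69 members were above and 17 below wild type, with a median of 0.0673 (all genes 0.00672), but after quantile normalization this became 46 and 40, with a median of 0.0104 (all genes -0.0182), and with a common array median 78 and 8, with a median of 0.141 (0.0799). In knockout 57 were above and 29 below, with a median of 0.0279, which quantile normalization turned to 37 and 49 and -0.0231 (all genes -0.0218), and a common array median to 73 and 13 and 0.0845 (0.0646). The shift of the members as a whole against wild type therefore depended on the scaling.

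The members with the smallest unadjusted p for mosaic against wild type at day 4, named after their values were seen, were the accessory subunits Ndufb11 and Ndufb3, the assembly factor Ndufaf5, the ATP synthase component Atp5mpl, and Ndufv2. Ndufb11 read 5.39, 5.38 and 5.15 in wild type, 5.51, 5.61 and 5.77 in knockout and 6.07, 5.81 and 5.97 in mosaic at day 4, so the 3 genotypes did not overlap. At day 0 its wild type arrays ranged from 5.31 to 6.15 and its mosaic arrays from 5.50 to 6.04. The day 4 difference of mosaic from wild type was 0.65 (95% interval 0.241 to 1.05) with a limma adjusted p of 0.168.

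Ndufaf5 read 5.46, 5.17 and 5.36 in wild type and 5.59, 5.90 and 5.90 in mosaic at day 4, a difference of 0.47. Atp5mpl read 8.77, 8.90 and 8.93 in wild type and 8.97, 9.40 and 9.51 in mosaic, a difference of 0.43, and Ndufb3 differed by 0.35 with overlapping arrays. Ndufv2 read 9.32, 9.35 and 9.25 in wild type, 9.57, 9.47 and 9.50 in knockout and 9.36, 9.66 and 9.68 in mosaic. Its first mosaic array lay next to the wild type arrays while the other two lay above the knockout arrays. Without mosaic day 4 replicate 1, limma called Atp5mpl (0.593, adjusted p = 0.0328), Ndufv2 (0.362, 0.0366) and Ndufb3 (0.461, 0.0492) higher in mosaic, together with 1.35% of all genes.

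At day 0, Cox8b, the muscle isoform of subunit 8, had the smallest unadjusted p of the members in both comparisons with mosaic. It was 0.58 higher in mosaic than wild type (unadjusted p = 0.00197, adjusted p = 0.999 in limma) and 0.48 higher than knockout (0.00794 and 1). The mosaic and wild type arrays overlapped for Cox8b. Atp5g1, another gene for subunit c, named after its values were seen, was 0.50 lower in knockout than wild type and was not called. Its unadjusted 95% interval ran from -0.985 to -0.0175. The residual SD of Atp5g1 was 0.315, beside a median of 0.110 for members.

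The third comparison asked whether differentiation itself differed between genotypes. No member and no other gene was called in limma (0% in each of the 3 tests). At an unadjusted p under 0.05 the change over differentiation was more positive in knockout than wild type for 4 members and more negative for 0 (9.51% of all genes), more positive in mosaic than wild type for 4 and more negative for 1 (12.4%), and neither for mosaic against knockout (4.29%). After quantile normalization the counts were 2 and 0 for knockout against wild type, and 1 and 2 for mosaic against wild type, so that the balance turned, and with a common array median they were 5 and 0 and then 7 and 1. Both comparisons with wild type share its 6 arrays. The 95% interval of such a difference reached 0.292 to either side for a typical member.

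Cox5b, the zinc-binding subunit of complex IV, had the smallest unadjusted p in knockout against wild type and is named for that reason. It read 9.64, 9.84 and 9.75 at day 0 and 9.60, 9.61 and 9.58 at day 4 in wild type, and 9.51, 9.56 and 9.64 and then 9.80, 9.77 and 9.77 in knockout. The changes were -0.15 and 0.21, and their difference of 0.35 (95% interval 0.10 to 0.609) had an adjusted p of 0.409 in limma. Its dimmer probe set changed by 0.43 in wild type and 0.60 in knockout. For the 13 members called over differentiation in all 3 genotypes no difference between genotypes reached an unadjusted p under 0.05. These members were selected for calls in the same direction in every genotype, which favours similar changes. Their result therefore cannot show whether differentiation was alike between genotypes.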

How the data were processed

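RNA was labelled with biotin and read on 1 array per sample, per the labels. The authors deposited 1 normalized value per probe set with values of 0.722 to 13.97 over 41345 probe sets, taken here as log2. For normalization, background correction, software and log base the entry is: not given in the sources used here. Fold changes assume base 2, and no detection call was at hand. Probe sets were named by the platform annotation, 23521 with 1 symbol, 1814 with several and 16010 with none listed. Genes above the 25th percentile of their array on at least 3 arrays were tested.

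A linear model with 6 group means was fitted to all 18 arrays in R 4.3.3 with limma 3.58.1 (12 residual and 4.36 prior degrees of freedom), with 12 contrasts, two-sided moderated tests and Benjamini-Hochberg adjustment over all genes tested. The script was tested on simulated data. Errors of changes are SEs from the fit, those of means SDs. The members, gene lists and tests were chosen with earlier results of these data known. Named are Pcdh19, called members (up to the 8 highest and 8 lowest per contrast and 4 per complex), complex IV isoforms and up to 4 called genes of each other list. Other genes are said to be chosen after their values were seen. Tried as alternatives were quantile normalization and a common array median, other filters (none, or the 50th percentile), averaging over probe sets of a gene, a replicate block, eBayes with a trended prior and robust estimation, fits restricted to the groups compared, and leaving out each array.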

Additional observations from a re-analysis of the deposited data

How the results depend on the processing

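Counts of called members moved by over 1.5 times under few alternatives. In wild type, quantile normalization gave 22 higher and 4 lower. Fitting the compared groups alone gave 9 higher in knockout and 3 lower in mosaic. Leaving out 1 array at a time gave 4 to 8 lower in wild type (4 without wild type day 4 replicate 3) and 0 to 3 higher in mosaic than wild type at day 4 (3 without mosaic day 4 replicate 1). The 13 members called in all 3 genotypes were selected by those calls. Of their 871 single-gene values, 853 kept direction and call, 18 lost the call, with a limma adjusted p of at most 0.144, and 0 reversed. These values included the averaged genotypes, with 25 settings per member, beside 14 per member in each genotype. Mosaic Ndufc2 lost its call in 5 of 14. The 18 lay in single genotypes. Averaged over the genotypes all 13 kept their call under every alternative run. Selection for calls in the same direction in every genotype made this likely in advance, so the averaged values add little to the count kept. Calls not mentioned above were lost in mosaic when groups were fitted alone (Ndufaf2, adjusted p = 0.0723, Ndufc2, 0.0645, Sdha, 0.0773) and for mosaic Ndufc2 with a common array median (0.0629). Whether the replicate numbers pair the samples was not settled. The r of deviations ran from -0.15 to 0.17 over 45 pairs pooled over all groups, with 4 over 0.1. Of the 18 arrays, 10 correlated best with an array of their own number. With the replicate block, 9 members were higher and 7 lower in wild type, 15 and 5 in knockout, and 12 and 5 in mosaic. The limits are 3 technical replicates per group, no background level to set dim probe sets against, and an unstated normalization.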
